A study of Mus musculus with 12 samples.

Results

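The class IIa histone deacetylases (HDACs) and the MEF2 transcription factors that they repress were measured in whole kidneys of mice given SK-124 or vehicle. The members were taken by symbol: the deacetylase genes Hdac4, Hdac5, Hdac7 and Hdac9 and the factor genes Mef2a, Mef2b, Mef2c and Mef2d, 8 of the 55401 genes in the tables. All mice were 8-week-old males of the C57BL6 strain, and the labels give no engineered allele. The 6 mice of the vehicle group received 15% 2-hydroxypropyl-beta-cyclodextrin, and the 6 mice of the SK-124 group received a single intraperitoneal injection of SK-124, an inhibitor of the kinases SIK2 and SIK3, at 40 mg/kg. The labels do not say that mice of a group came from separate litters or cages. Each mouse gave 1 library, with 19244227 to 19771802 expected counts per library.

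Class IIa HDACs carry almost no deacetylase activity of their own. They bind MEF2 factors on DNA and bring in a corepressor complex that contains HDAC3. Kinases of several families, the salt-inducible kinases (SIKs) among them, phosphorylate class IIa HDACs, 14-3-3 proteins then hold the phosphorylated proteins in the cytoplasm, and the MEF2 factors are released from repression. When SIKs are inhibited, class IIa HDACs lose phosphate groups and move into the nucleus. This control acts on protein location, which RNA-Seq does not measure. The values below are mRNA levels in the whole organ.

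The promoters of 4 members are shown. Those of Hdac5 and Mef2a hold the letters that MEF2 factors bind, and those of Hdac4 and Hdac5 hold the letters of a cAMP response element (CRE) half-site, the element bound by the factor CREB, whose coactivators are also SIK substrates. The promoter of Mef2d holds neither. A link between these letters and the changes given below was not tested. Each window runs 5′ to 3′ on the strand of its gene, from 250 bases before to 50 bases after the start of the RefSeq transcript (GRCm38.p6), and capitals mark a match to either motif.
Hdac4, chr1:92180292-92180591, minus strand: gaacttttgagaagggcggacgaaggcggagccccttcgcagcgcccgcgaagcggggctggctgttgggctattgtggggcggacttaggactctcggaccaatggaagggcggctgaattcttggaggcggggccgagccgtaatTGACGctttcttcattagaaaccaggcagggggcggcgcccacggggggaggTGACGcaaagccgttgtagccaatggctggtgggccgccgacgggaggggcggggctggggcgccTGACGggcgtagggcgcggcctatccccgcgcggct
Hdac5, chr11:102230123-102230422, minus strand: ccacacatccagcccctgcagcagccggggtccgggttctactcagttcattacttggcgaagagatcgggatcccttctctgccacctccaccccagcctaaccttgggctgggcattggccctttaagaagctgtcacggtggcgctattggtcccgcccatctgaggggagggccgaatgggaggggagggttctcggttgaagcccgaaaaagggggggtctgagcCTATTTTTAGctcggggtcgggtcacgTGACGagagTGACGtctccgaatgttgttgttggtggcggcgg
Mef2a, chr7:67372809-67373108, minus strand: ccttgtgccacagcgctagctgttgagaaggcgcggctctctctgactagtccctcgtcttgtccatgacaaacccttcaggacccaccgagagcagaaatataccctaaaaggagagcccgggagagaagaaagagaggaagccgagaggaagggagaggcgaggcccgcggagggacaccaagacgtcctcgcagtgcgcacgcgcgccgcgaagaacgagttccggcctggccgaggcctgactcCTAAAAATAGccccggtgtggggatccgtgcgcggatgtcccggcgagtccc
Mef2d, chr3:88142122-88142421, plus strand: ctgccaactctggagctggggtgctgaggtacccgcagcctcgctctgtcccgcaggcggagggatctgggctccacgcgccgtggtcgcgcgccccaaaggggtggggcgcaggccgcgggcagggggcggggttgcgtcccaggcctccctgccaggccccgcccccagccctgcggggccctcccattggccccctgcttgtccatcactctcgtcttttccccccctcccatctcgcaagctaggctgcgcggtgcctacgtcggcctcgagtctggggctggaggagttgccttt

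The motifs below were searched on both strands of the 14 RefSeq windows that belong to the 8 members: the full CRE TGACGTCA, the half-site TGACG, which the full CRE contains, and the MEF2 consensus. The full CRE was found in none of the 14 windows and in 1.79% of the 32851 mouse windows of the same length. The half-site stood 3 times in the Hdac4 window, starting at positions -103, -51 and 14 relative to the transcript start, and 2 times in the Hdac5 window, starting at positions 7 and 16. It was found in 20.81% of all windows. The MEF2 consensus was read as CTATTTTTAG at positions -20 to -11 of Hdac5 and as CTAAAAATAG at positions -2 to 7 of Mef2a, and in 3.19% of all windows. The windows of Hdac7, Hdac9, Mef2b, Mef2c and Mef2d held no match to these letters. The Hdac4 and Mef2d windows were rich in G and C, at 68.0% and 72.0%, where the median of all windows was 52.7%. The 4 Hdac7 windows ran from 54.7% to 73.7%, and Mef2a, Hdac5 and Mef2b stood at 62.3%, 60.7% and 57.0%. The 3 Mef2c windows, at 35.7% to 48.3%, and the 2 Hdac9 windows, at 44.0% and 45.3%, lay below the median.

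The order of the levels between genes was read from TPM, the share of all transcripts after correction for transcript length. In the vehicle mice, Hdac5 had the highest mean at 19.8 ± 1.28 TPM (SD, n = 6), and Mef2d followed at 18.9 ± 4.61 TPM. These neighbours overlapped, and Hdac5 was the higher of the pair in 4 of 6 mice. Mef2a at 7.23 ± 1.5 TPM and Hdac7 at 6.97 ± 0.780 TPM also overlapped. Mef2c at 1.54 ± 0.253 TPM and Hdac4 at 1.11 ± 0.172 TPM lay below them and overlapped each other. Hdac9, at 0.125 ± 0.0532 TPM, and Mef2b, at 0.00667 ± 0.0163 TPM, closed the order. The steps from Mef2d to Mef2a, from Hdac7 to Mef2c, from Hdac4 to Hdac9 and from Hdac9 to Mef2b were larger than the spread, since the ranges of the 6 mice did not meet.

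**Figure D1:**
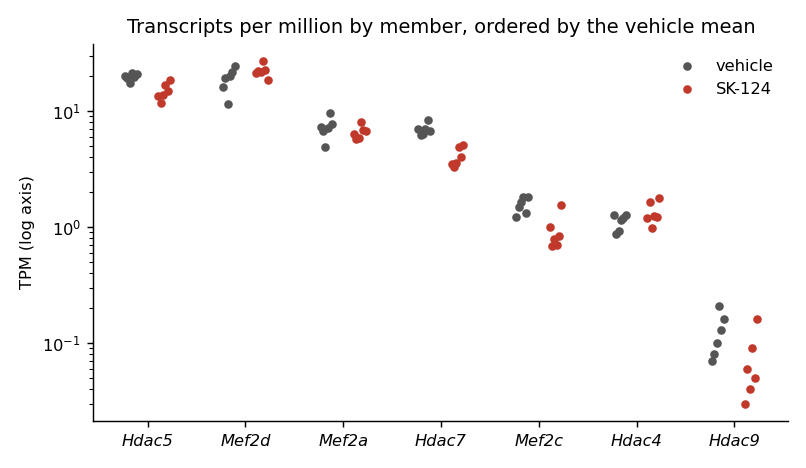
TPM of 7 members in each mouse on a log axis, ordered by the mean of the vehicle mice, with grey points for vehicle and red points for SK-124. Hdac5 and Mef2d lie highest in both groups and Hdac9 lowest, and Mef2b is left out because 10 of its 12 values are 0.

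Hdac5 made up 70.7% ± 2.08 of the summed TPM of the class IIa HDACs in vehicle mice, and Hdac7 24.9% ± 1.98. Mef2d made up 67.9% ± 3.13 of the summed TPM of the MEF2 factors, Mef2a 26.3% ± 2.78 and Mef2c 5.82% ± 1.76 (SD, n = 6). In SK-124 mice the share of Hdac7 was 19.9% ± 0.726, between 19.3% and 21.3%, below every vehicle mouse, where it was between 23.3% and 28.6%. The share of Hdac4 was 3.27% to 4.43% in vehicle mice and 5.36% to 9.85% in SK-124 mice, also without overlap. Hdac4 TPM itself overlapped, at 0.87 to 1.26 in vehicle mice and 0.98 to 1.78 in SK-124 mice. A share also moves with the TPM of the other members, and shares within other gene families were not computed. Mef2c made up 4.01% to 9.07% of MEF2 TPM in vehicle mice and 1.96% to 5.83% in SK-124 mice, which overlap. In the SK-124 group the order began with Mef2d at 22.2 ± 2.73 TPM, which was above Hdac5 in 5 of 6 mice, and Hdac4 stood above Mef2c in all 6.

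Counts of the same gene were then compared between the groups as TMM-scaled counts in a fixed library total (CPM), with edgeR's quasi-likelihood test across all genes. A gene is called where its Benjamini-Hochberg adjusted p is under 0.05. Of the 8 members, 6 passed the filter on low counts and were tested, and 5 of the 6 were called: Hdac4 and Mef2d rose, and Hdac5, Hdac7 and Mef2c fell. Calls were common in these kidneys. Of 14159 genes tested, 24.4% were called, 10.8% higher and 13.5% lower in SK-124 mice. The median log2 fold change was -0.17 for the 3 tested HDAC members, 0.02 for the 3 tested MEF2 members and -0.005 for all genes tested.

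**Figure D2:**
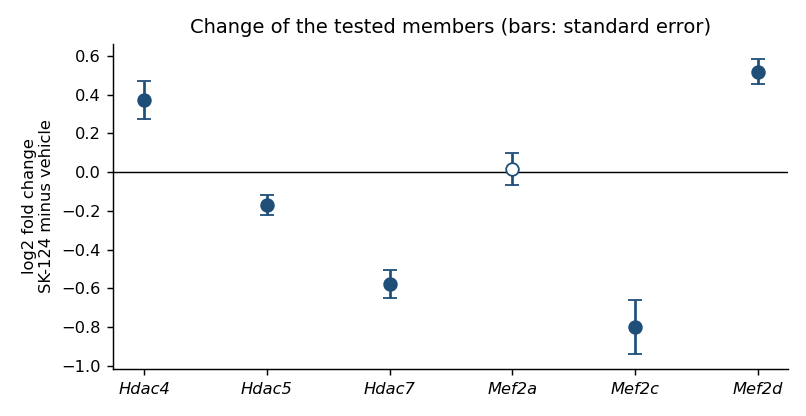
Log2 fold change of the 6 tested members, SK-124 minus vehicle, with bars for the standard error. Filled points were called and the open point, Mef2a at 0.02, was not. Mef2d and Hdac4 lie above 0 and Hdac5, Hdac7 and Mef2c below it.

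Of the 3 class IIa HDACs tested, Hdac7 had the largest log2 fold change in size. HDAC7 is best known from endothelial cells and thymocytes. Its level ran from 18.1 to 21.9 CPM in vehicle mice with a median of 20.01, and from 12.02 to 14.9 CPM in SK-124 mice with a median of 13.4. Every SK-124 mouse lay below every vehicle mouse. The mean went from 19.9 ± 1.5 to 13.4 ± 1.20 CPM (SD, n = 6), a log2 fold change of -0.58 ± 0.071 (SE) with an adjusted p of 1.13e-05 by edgeR. Groups that did not overlap, in either direction, were found for 13.0% of all genes tested and for 3 of the 6 tested members, Hdac7, Mef2c and Mef2d.

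Hdac4, whose protein is a classical SIK substrate in bone and liver, moved the other way. Vehicle mice held 5.85 to 7.59 CPM with a median of 6.25, and SK-124 mice 6.98 to 9.43 CPM with a median of 8.69. The lowest SK-124 mice overlapped the highest vehicle mouse. The log2 fold change was 0.37 ± 0.098 (SE), with an adjusted p of 0.00945 by edgeR. The call was lost in 4 of 22 alternative settings, among them limma on log2(TPM + 1) at 0.15 (adjusted p = 0.279) and on log2(TPM + 0.1) at 0.24 (adjusted p = 0.306).

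Hdac5, the close relative of Hdac4 and the most abundant class IIa HDAC here, fell by a small amount. It ran from 44.8 to 49.8 CPM in vehicle mice, median 48.0, and from 38.6 to 44.8 CPM in SK-124 mice, median 42.6. Only the lowest vehicle mouse and the highest SK-124 mouse met, at 44.78 and 44.82 CPM. The log2 fold change was -0.17 ± 0.052 (SE), a difference of -11.0% with an adjusted p of 0.0260 by edgeR. The adjusted p was above the threshold in 7 of 22 alternative settings, among them 4 that left out a single mouse (0.0575 without vehicle mouse 4, 0.0596 without vehicle mouse 6, 0.0507 without SK-124 mouse 5 and 0.0687 without SK-124 mouse 6).

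Hdac9 was near the limit of detection and was not tested. It had 5 to 12 expected counts in each vehicle mouse, 48 in all, and 2 to 5 in each SK-124 mouse, 24 in all. The groups touched at 5 counts. Without the filter on low counts its log2 fold change was -0.86 with an adjusted p of 0.122 by edgeR.

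**Figure D3:**
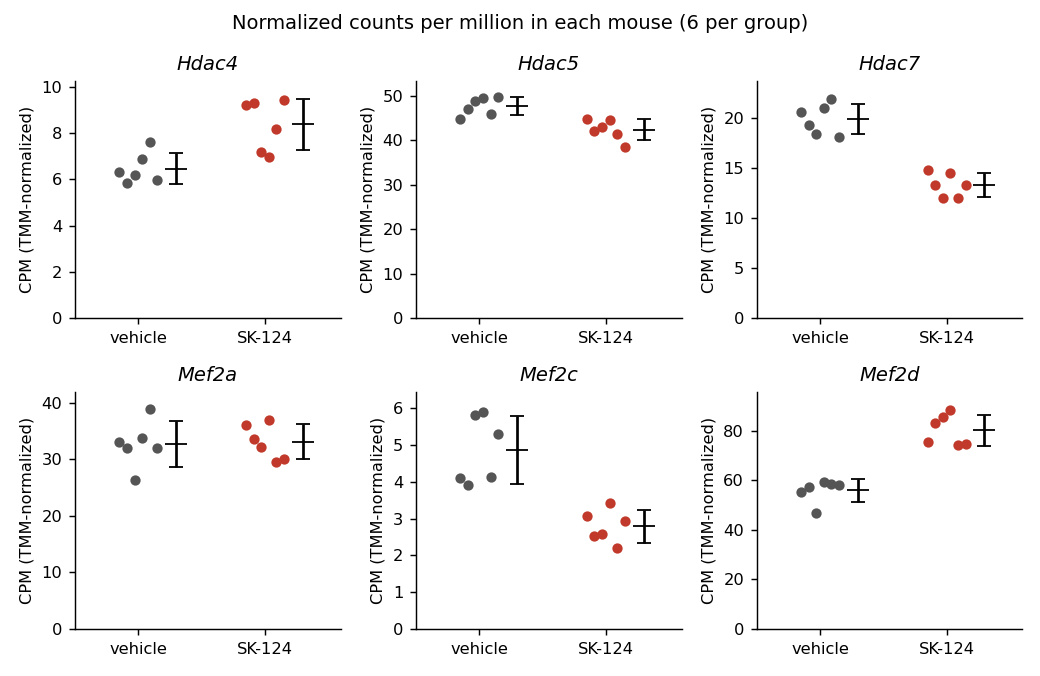
TMM-normalized CPM of the 6 tested members in each of the 6 mice per group on axes that start at 0, with mean and SD to the right of the points. The points of Hdac7 and Mef2c lie lower and those of Mef2d higher in every SK-124 mouse than in any vehicle mouse, and the other 3 genes overlap.

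Among the MEF2 factors, Mef2d rose. MEF2D is expressed in many tissues. Vehicle mice held 46.8 to 59.4 CPM with a median of 57.6, and SK-124 mice 74.2 to 88.2 CPM with a median of 79.3. All SK-124 mice lay above all vehicle mice. The log2 fold change was 0.52 ± 0.066 (SE), a difference of 43.3%, with an adjusted p of 1.65e-05 by edgeR. TPM divides by the transcript length that RSEM estimated for each mouse, and it carries no TMM scaling. On TPM the groups overlapped (11.4 to 24.6 TPM in vehicle mice and 18.5 to 26.9 TPM in SK-124 mice). With limma on log2(TPM + 1) Mef2d stood at 0.25 (adjusted p = 0.234). The median of all genes tested was then -0.11, against -0.005 on TMM-scaled counts. Scaled by library totals alone, Mef2d stood at 0.40 (adjusted p = 0.00116 by edgeR). The estimated length of Mef2d ran from 2548 to 3679 bases in vehicle mice and from 2893 to 3909 bases in SK-124 mice.

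Mef2c, whose factor acts in muscle, endothelium, bone and lymphocytes, fell. It ran from 3.91 to 5.90 CPM in vehicle mice, median 4.72, and from 2.20 to 3.42 CPM in SK-124 mice, median 2.76. The groups did not overlap. The log2 fold change was -0.80 ± 0.141 (SE) with an adjusted p of 0.000427 by edgeR. In TPM the groups overlapped, at 1.21 to 1.82 TPM in vehicle mice and 0.69 to 1.56 TPM in SK-124 mice. With limma on log2(TPM + 1) Mef2c stood at -0.41 (adjusted p = 0.00929). The values rest on 79 to 117 expected counts in each vehicle mouse and 43 to 69 in each SK-124 mouse.

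Mef2a, a factor with wide expression that includes muscle and vessels, was not called. It ran from 26.4 to 38.9 CPM in vehicle mice, median 32.5, and from 29.6 to 37.0 CPM in SK-124 mice, median 32.9. The log2 fold change was 0.02 ± 0.083 (SE), with an adjusted p of 0.912 by edgeR, and its sign turned under other settings. Mef2b, best known from germinal center B cells, had 1 expected count in 1 mouse of each group and none in the other 10 mice, so no comparison was possible.

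The balance within each family was also read as a ratio of expected counts in the same mouse, which does not depend on library scaling. Mef2d had 8.04 to 14.6 counts for each Mef2c count in vehicle mice and 24.6 to 33.6 in SK-124 mice. It had 1.5 to 1.81 counts for each Mef2a count in vehicle mice and 2.09 to 2.66 in SK-124 mice. Hdac7 had 2.89 to 3.31 counts for each Hdac4 count in vehicle mice and 1.42 to 2.08 in SK-124 mice. Hdac5 had 2.10 to 2.74 counts for each Hdac7 count in vehicle mice and 2.88 to 3.58 in SK-124 mice. These 4 ratios did not overlap between the groups. Another ratio did: Hdac5 had 6.07 to 8.34 counts for each Hdac4 count in vehicle mice and 4.09 to 6.40 in SK-124 mice. The ratios combine the changes given above, and no share over other pairs of genes was computed. Because Mef2d lay higher and Mef2c lower in every SK-124 mouse than in any vehicle mouse, their ratio could not overlap. Summed over its members, class IIa HDAC CPM was 74.5 ± 2.20 in vehicle and 64.4 ± 2.95 in SK-124 mice, and MEF2 CPM was 93.5 ± 7.87 and 116.0 ± 8.52 (SD, n = 6). The MEF2 sum overlapped when counts were scaled by library totals alone, at 78.3 to 109.4 and 102.9 to 133.2 CPM. On TPM both sums overlapped. MEF2 TPM was 27.7 ± 5.88 in vehicle and 29.7 ± 3.14 in SK-124 mice, at 17.97 to 34.18 and 26.77 to 35.73. Class IIa HDAC TPM was 28.0 ± 1.86 and 20.4 ± 3.42 (SD, n = 6), at 24.93 to 29.69 and 16.65 to 25.67.

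The mean transcript length of a gene, as RSEM weights it over isoforms, moves when the isoform mix moves. No tested member was called for it, with adjusted p of 0.958 or above by limma. Calls were rare: 7 of 12054 (0.0581%) were called, and 686 were under an unadjusted p of 0.05. For Mef2c the log2 difference was -0.16 ± 0.164 (SE), which leaves a wide range of isoform shifts undetected at this depth.

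The genes lie in the GENCODE M21 annotation (GRCm38) as follows. Hdac4 (ENSMUSG00000026313.16) spans chr1:91928779-92195699, Hdac5 (ENSMUSG00000008855.17) chr11:102194432-102230166 and Hdac7 (ENSMUSG00000022475.19) chr15:97792664-97844502, all on the minus strand. Mef2a (ENSMUSG00000030557.17) spans chr7:67231163-67372858 on the minus strand. Mef2c (ENSMUSG00000005583.16) spans chr13:83504034-83667080 and Mef2d (ENSMUSG00000001419.17) chr3:88142372-88172086, both on the plus strand. The counts of all 8 members were whole numbers with an RSEM posterior SD of 0, so their gene-level assignment carried no uncertainty in RSEM. The use of strand in counting is not given in the sources used here. Mef2d shares 531 bases with the antisense gene 1700113A16Rik, and RSEM divided no read of Mef2d between genes. The antisense gene had a log2 fold change of -0.11 with an adjusted p of 0.448 by edgeR. Mef2a and Lysmd4 share 76168 bases on opposite strands, and Lysmd4 had a log2 fold change of 0.07 with an adjusted p of 0.566. Hdac7 and Slc48a1 share 29 bases at their ends, and Slc48a1 had a log2 fold change of 0.05 with an adjusted p of 0.557. Mef2b, which was not tested, shares 7609 bases on the same strand with Borcs8. Borcs8 had a mean of 192.5 expected counts and a log2 fold change of -0.12 with an adjusted p of 0.261 by edgeR.

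The 7 lists held the other genes of the pathway, 61 of which were tested. They were written with earlier results of these data known, so their counts of calls are not independent of these data. Of these 26 were called, 17 higher and 9 lower, where 24.4% of all genes tested were called, 10.8% higher and 13.5% lower. Counts of 2 of 7 or 2 of 10 in the lists lie near that background. Of the other HDACs, 2 of 7 fell and none rose, with a median log2 fold change of -0.12. Hdac11, the single class IV enzyme, went from 23.6 ± 1.19 to 15.7 ± 1.09 CPM, a log2 fold change of -0.59 with an adjusted p of 1.34e-06 by edgeR. Hdac1, a class I enzyme, had a log2 fold change of -0.16 with an adjusted p of 0.0394, and was called in 10 of 22 alternative settings. Of the NCoR-HDAC3 corepressor genes, 1 of 6 rose and none fell (median 0.07). That gene was Tbl1xr1, at 0.30 with an adjusted p of 0.0431, called in 8 of 22 alternative settings. Hdac3 itself, which gives the complex its enzyme activity, had a log2 fold change of 0.09 with an adjusted p of 0.305.

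Among the kinases of class IIa HDACs, 6 of 16 rose and 4 fell, with a median log2 fold change of 0.05. Of these calls, that of Mark2 (-0.18, adjusted p = 0.0439) was lost in 15 of 22 alternative settings and that of Camk2d (0.30, adjusted p = 0.0236) in 7, and both are named after their values were seen. The largest differences were those of Camk2a at -1.14 (adjusted p = 0.00202), Camk2b at 0.98 (adjusted p = 9.005e-05) and Sik1 at 0.80 (adjusted p = 2.86e-05), all by edgeR. Camk2a and Camk2b encode subunits of the calcium/calmodulin-dependent kinase CaMKII and were low, at 0.834 and 1.47 CPM in vehicle mice. The mRNAs of the kinases that SK-124 inhibits also rose. These are named after their values were seen: Sik2 went from 17.8 ± 3.48 to 27.9 ± 2.65 CPM (log2 fold change 0.65, adjusted p = 0.000299) and Sik3 from 79.3 ± 8.03 to 111.5 ± 9.002 CPM (0.49, adjusted p = 6.90e-05). Of the subunits of PP2A, the phosphatase that removes phosphate from class IIa HDACs, 3 of 6 rose and none fell (median 0.14), with Ppp2r1b, a scaffold subunit, at 0.61 (adjusted p = 1.30e-06). Ppp2r2d, a regulatory subunit, stood at 0.26 (adjusted p = 0.00301), and Ppp2cb, a catalytic subunit, at 0.19 (adjusted p = 0.0210). The Ppp2cb call was lost in 6 of 22 alternative settings, with library totals alone at 0.081 (adjusted p = 0.516) and without SK-124 mouse 3 at 0.17 (adjusted p = 0.0521) among them. Of the 14-3-3 genes, 2 of 7 rose and none fell (median 0.07), namely Ywhaz at 0.46 (adjusted p = 0.000277) and Ywhah at 0.24 (adjusted p = 0.00231).

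Of the genes that act on MEF2 factors, 2 of 10 fell and none rose (median 0.03). Mapk7, which encodes the MEF2 kinase ERK5, had a log2 fold change of -0.34 (adjusted p = 0.0113), and Mapk14, which encodes the MEF2 kinase p38 alpha, of -0.25 (adjusted p = 0.00368), both by edgeR. Of 16 MEF2 target genes known from other tissues, 10 were tested, 5 rose and 1 fell, with a median of 0.38. Nr4a1, an immediate early gene, ran from 2.76 to 22.9 CPM in vehicle mice and from 18.3 to 92.8 CPM in SK-124 mice (log2 fold change 2.80, adjusted p = 0.000678). Without vehicle mouse 5 its log2 fold change was 3.69. The transcription factor genes Klf6 at 1.14 (adjusted p = 1.61e-06) and Klf2 at 0.99 (adjusted p = 8.50e-05) did not overlap between the groups. The other 3 called targets, named after their values were seen, were Ppargc1a at 0.66, Klf4 at 0.56 and Slc2a4 at -0.32. Several of these genes also respond to other inputs, such as cAMP signaling, and their counts are not a measure of MEF2 activity. Sost, a target of MEF2C in bone that encodes sclerostin, was too low to test, with 3 or 4 expected counts in each of the 6 vehicle mice and 1 count in a single SK-124 mouse.

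**Figure D4:**
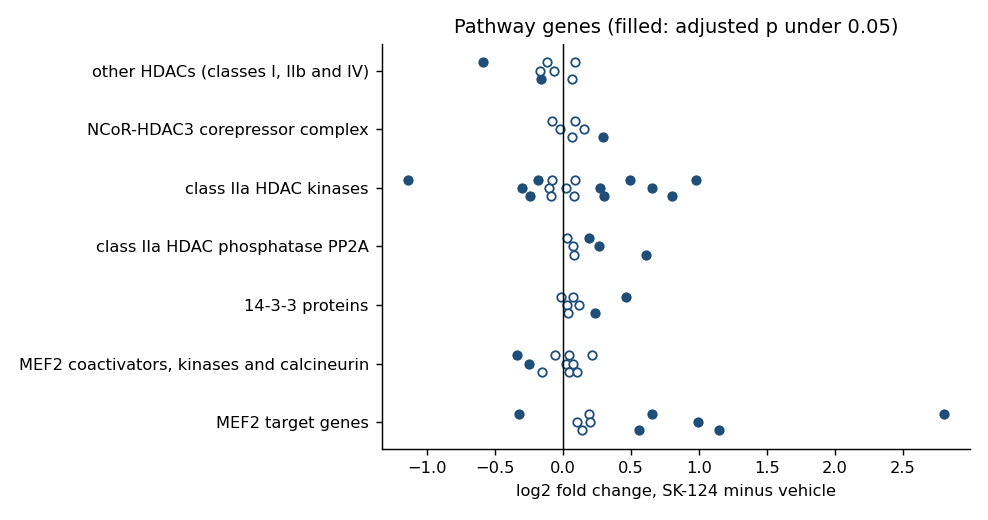
Log2 fold change, SK-124 minus vehicle, of each tested gene in the 7 pathway lists, with filled points for genes called at an adjusted p under 0.05. The kinases spread to both sides of 0, and Nr4a1 lies farthest to the right at 2.80.

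Whole kidney mixes many cell types, and fewer cells of a type cannot be told apart from less RNA per cell. The organ's own markers were plain: the 9 kidney epithelium markers summed to 8830 to 10390 CPM in vehicle mice and to 9586 to 11080 CPM in SK-124 mice, and Aqp2, the water channel of the collecting duct, rose at 0.75 (adjusted p = 0.000852 by edgeR). The 7 endothelial markers summed to 172.0 to 245.6 CPM in vehicle mice and to 134.1 to 225.5 CPM in SK-124 mice. Of these 7, 3 fell and none rose: Ehd3 at -0.87, Kdr at -0.85 and Tek at -0.66. The defining genes Pecam1 and Cdh5, named as such and not for their change, were not called, with 30.8 and 29.9 CPM in vehicle mice and 32.4 and 36.6 CPM in SK-124 mice. Divided by the endothelial sum, Hdac7 was 7.53 to 11.7 CPM per 100 endothelial CPM in vehicle mice and 6.43 to 8.98 in SK-124 mice, and Mef2c was 1.68 to 2.83 and 1.37 to 1.92. Both of these ratios overlapped between the groups, with lower means in SK-124 mice. The means were 9.58 ± 1.58 in vehicle and 7.62 ± 0.86 in SK-124 mice for Hdac7. For Mef2c they were 2.31 ± 0.38 and 1.58 ± 0.18 (SD, n = 6). The part of endothelial RNA in the falls of Hdac7 and Mef2c was not tested.

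**Figure D5:**
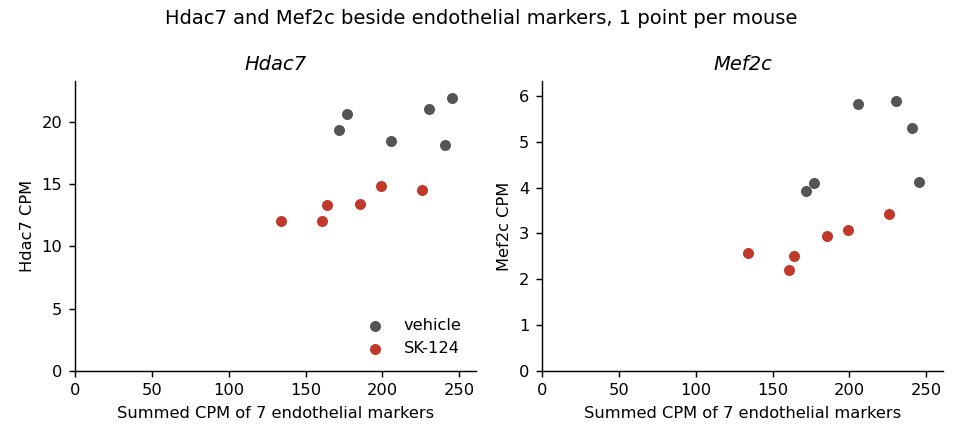
CPM of Hdac7 on the left and of Mef2c on the right against the summed CPM of 7 endothelial markers, 1 point per mouse, both axes from 0. SK-124 mice lie lower on the vertical axis in each panel, while on the horizontal axis they span 134.1 to 225.5 and the vehicle mice 172.0 to 245.6.

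Other markers moved beside Mef2c. The 6 B cell markers summed to 7.11 to 16.6 CPM in vehicle mice and to 1.70 to 3.47 CPM in SK-124 mice, and all 3 that could be tested fell, Igkc at -2.24, Ighm at -2.04 and Cd79a at -1.75. Without vehicle mouse 4 Igkc stood at -1.33, and its call was lost in 3 of 21 alternative settings. Of 6 smooth muscle and mesangial markers 2 fell, Pdgfrb at -0.93 and Des at -0.83, and 2 rose, Tagln at 0.55 and Acta2 at 0.41, with sums of 66.5 to 93.9 CPM and 63.8 to 87.6 CPM. Acta2 is named after its value was seen, and its call was lost in 12 of 22 alternative settings. Of 7 macrophage markers 2 fell, Cx3cr1 at -2.10 and Cd68 at -0.60, and Cd14 rose at 0.997, with sums of 60.6 to 79.6 CPM and 65.3 to 83.6 CPM. The 5 T cell markers summed to 1.33 to 2.55 CPM and 0.792 to 2.13 CPM, and the 4 adipocyte markers to 0 to 15.1 CPM and 0.0501 to 9.41 CPM. In each of these lists 1 gene could be tested, Cd4 (adjusted p = 0.248) and Cfd (adjusted p = 0.983) by edgeR, and neither was called. The 6 skeletal muscle markers summed to at most 0.642 CPM, and Ckm and Myh4 were at 0 in all mice. The part of these cells in the Mef2c values was not tested.

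The SK-124 libraries fell into sets by the share of counts that the 10 most abundant genes held, 44.4% to 46.8% in SK-124 mice 1 to 3 and 38.6% to 40.2% in mice 4 to 6, where vehicle mice had 39.9% to 43.2%. Each set was compared with all vehicle mice. Hdac7 stood at -0.57 with mice 1 to 3 and at -0.58 with mice 4 to 6, Mef2c at -0.83 and -0.76, and Mef2d at 0.54 and 0.50, and all 6 values were called. Hdac4 stood at 0.41 (adjusted p = 0.0284 by edgeR) and 0.35 (adjusted p = 0.0592), and Hdac5 at -0.14 (adjusted p = 0.186) and -0.19 (adjusted p = 0.0731). When counts were scaled by library totals alone, the median log2 fold change over the whole table moved to -0.12, with 777 genes called higher and 3058 lower in place of 1536 and 1917. Hdac4 was then at 0.26 (adjusted p = 0.0794) and the other 4 called members kept their calls.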

How the data were processed

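Whole-kidney libraries of 12 mice were sequenced on the BGISEQ500 platform. For each mouse the authors deposited an RSEM gene table with expected counts, TPM and a mean transcript length per gene. The submitters' processing notes name STAR 2.7.2b, RSEM 1.3.0, FastQC, DESeq2 and the build mm10, and the use of strand is not given in the sources used here. Of 55401 gene identifiers, 54349 matched GENCODE M21 with their version.

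Expected counts were rounded, scaled by TMM, filtered with filterByExpr at a minimum count of 10 and compared over 14159 genes by the quasi-likelihood test of edgeR without a replicate block. Transcript lengths were tested with limma on the log2 scale, and adjusted p are Benjamini-Hochberg values over all genes tested. Alternatives were DESeq2, RLE, library totals, other filters, limma on log2(TPM + 1) and log2(TPM + 0.1), a replicate block, and leaving out mice. The tools were edgeR 4.0.16, DESeq2 1.42.0 and limma 3.58.1 in R 4.3.3. The scripts were tested on simulated data.

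The members and all lists were chosen with earlier results of these data known. All members were described, and of each list up to 3 called genes with the largest change, or else the gene with the smallest p. Genes named beyond that rule are marked as such in the text, apart from Hdac3 and Sost, which were also named after their values were seen. The call of 1 marker gene is not reported here. No 2 libraries of a group matched within counting noise (over 30 pairs, chi-square divided by its degrees of freedom was at least 4.69). Replicate numbers belong to different mice, and p-values weigh the difference between the groups against the spread between these mice.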

Additional observations from a re-analysis of the deposited data

Results flagged for a closer look

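In 26 sets of 6 mice (a member's CPM or estimated transcript length in a group), 2 held a mouse far from the others by Dixon's criterion, where chance alone marks about 1 set in 20. Mef2d was at 46.83 CPM in vehicle mouse 3, the lowest of its group, where the next vehicle mouse had 55.4 CPM. Without that mouse Mef2d was still called. The estimated mean transcript length of Mef2c was 4508.15 bases in SK-124 mouse 4, where the other 5 SK-124 mice lay between 1930 and 2841 bases.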

How the results depend on the processing

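Over 22 alternative settings, Hdac7 (log2 fold change -0.77 to -0.55) and Mef2c (-0.91 to -0.41) were called in all, Mef2d in 20, Hdac4 in 18 and Hdac5 in 15. The number of members called was 5 and became 3 with limma on log2(TPM + 1), with limma on log2(TPM + 0.1) and with SK-124 mice 4 to 6 alone, and was 4 to 5 when single mice were left out. Genes called became 2298 with SK-124 mice 1 to 3 alone. Genes called higher were 500 and 498 on the TPM scales, against 1536. Mef2a was reversed with library totals alone (-0.10), limma on log2(TPM + 1) (-0.10), limma on log2(TPM + 0.1) (-0.11) and SK-124 mice 4 to 6 alone (-0.016), and ran from -0.038 to 0.073 when single mice were left out. It was called under none of them, and the cause was not tested.

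With a replicate block, genes called in transcript length went from 7 to 1, and from 3 to 13 when single mice were left out. Without single mice the length difference ran from -0.095 to 0.024 for Hdac4 and from -0.033 to 0.00064 for Mef2a. The deviations of same-numbered mice correlated at r from -0.184 to 0.354, so a pairing by number was neither shown nor excluded. The replicate block changed no member's call (Hdac4 adjusted p = 0.0225, Hdac5 adjusted p = 0.0436 by edgeR). Depth limits Hdac9 and Mef2b, with at most 12 and 1 expected counts in a mouse. Of the other list genes named, the call was lost in 3 of 22 settings for Tagln, Ywhah and Ppp2r2d, in 2 for Klf4 and in 1 for Mapk7, Slc2a4 and Cd68, and in 1 of 21 for Camk2a.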

Other observations

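Across the 12 mice, after each group's mean was taken away, the genes whose CPM followed each member most closely were picked from about 9889 genes, so high values of r come from the choice and no test was made. All points share the libraries and their scaling. Mef2d was most like Slc9a3 (r = 0.953), a sodium/proton exchanger of the proximal tubule, and Kdm6b (0.934), a histone demethylase. Mef2a was most like Lyst (0.955) and Tnrc18 (0.949). Mef2c was most like Rgs5 (0.884), a pericyte gene, and Mpped2 (0.883). Hdac7 was most like Frmd4a (0.907) and Tshz2 (0.899), Hdac4 like Ifi44 (0.902) and Slc16a7 (0.885), and Hdac5 like Cwc25 (0.861) and Nicn1 (0.854). Between members, r was 0.777 for Hdac7 and Mef2a and 0.724 for Mef2a and Mef2d, and -0.391 for Hdac4 and Hdac5.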
